A study of Bos taurus with 32 samples.

Results

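The miRNA described here is bta-miR-378, 1 of the 672 bovine miRNAs on a custom Agilent array, measured in 2 fat depots of 16 crossbred Hereford × Aberdeen Angus steers. It was chosen by its gene of origin and by its differences between depots within each diet and between diets within each depot on these same arrays, so its levels and those differences are given as a description, with no test. The array holds 1 miRNA whose name begins with bta-miR-378 or bta-miR-422, and 3 probes measure it.

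MicroRNAs are short RNAs that base pair with messenger RNAs and lower their translation or stability. miR-378 is cut from a hairpin in an intron of PPARGC1B, the gene of PGC-1β, a coactivator that drives mitochondrial biogenesis and fatty acid oxidation, so the miRNA and its host can be made from 1 transcript. It rises when preadipocytes mature, it has been linked to the size of lipid droplets and to fatty acid synthesis in fat cells, and it is also abundant in skeletal muscle and heart. In the RefSeq annotation of the bovine assembly ARS-UCD2.0, 5 genes carry the miR-378 name. MIR378-1 lies within PPARGC1B, MIR378-2 within CALCR, MIR378C within ZNF521 and MIR378D within MSI2, whereas MIR378B lies within no other gene of the table. The array measures the mature RNA and cannot tell which of the loci it came from.

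The steers, a little over a year old at slaughter, were fed a barley-based finishing diet (control diet, 8 steers) or a similar diet whose fat content was raised with flaxseed (high fat diet, 8 steers). Subcutaneous fat was backfat and visceral fat was perirenal fat, and each steer gave 1 sample of each depot, which made 4 groups of 8 arrays with 100 ng of total RNA on each. Whole tissue was used, so fewer cells of a type and less RNA per cell cannot be told apart. Each slide carried the 8 arrays of 1 group, and both slides with samples of 1 diet went through the scanner together, so slide and group, and scanning and diet, cannot be told apart. The arrays differed in brightness, with summed intensities of 25966 to 79240 for control steers and 96838 to 366671 for high fat steers.

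Before the results, the depot labels were checked with bta-miR-196a, a miRNA of the HOX clusters, which differ in activity between fat depots. Its scaled log2 intensity (log2 of the intensity over the array's 75th percentile, taken over the 91 miRNAs detected on all 32 arrays) lay between -3.46 and -2.39 in the visceral and at most at -6.96 in the subcutaneous samples of high fat steers. In control steers the visceral samples lay between -2.73 and -1.68, and the subcutaneous sample of control steer 108 lay at -2.43, within that visceral range, where the subcutaneous median was at the floor of -7.22. Results of bta-miR-378 that rest on this sample are therefore given with and without it.

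bta-miR-378 was detected on all 32 arrays. All 640 of its spots were well above background, 0 were saturated and 8 carried an outlier mark. The error that the extraction software assigned to the total intensity was 6.80 to 7.44 percent of the intensity, and the spots of 1 probe varied by a median coefficient of variation of 4.72 percent. The intensity of bta-miR-378 before scaling had its lowest, median and highest value at 74.9, 217 and 385 in control subcutaneous fat and at 178, 265 and 499.7 in control visceral fat. For high fat steers these values were 502, 1043 and 1519.7 in the subcutaneous and 855, 1459 and 2746 in the visceral depot. Every high fat array was brighter for bta-miR-378 than every control array, on arrays that were also brighter as a whole. Within the groups, the unscaled log2 intensity had Pearson's r of 0.68 to 0.93 with the log2 summed intensity of the array, whereas the scaled level had r of 0.13, -0.11, 0.64 and -0.04 in control subcutaneous, control visceral, high fat subcutaneous and high fat visceral fat. The scaled level is therefore used below, and its values in high fat subcutaneous fat still moved with the brightness of the array, whose part in them was not tested.

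On the scaled log2 scale, bta-miR-378 ran from -1.40 to -0.63 in high fat subcutaneous fat, with a median of -0.87 and a mean of -0.94 ± 0.26 (SD, n = 8). It ran from -0.62 to 0.26 in control subcutaneous fat, with a median of -0.38 and a mean of -0.29 ± 0.31 (SD, n = 8). The groups of subcutaneous fat did not overlap, but only 0.02 separated the lowest control steer from the highest high fat steer. In high fat visceral fat it ran from -0.28 to 1.04, with a median of 0.60 and a mean of 0.55 ± 0.42 (SD, n = 8). In control visceral fat it ran from 0.08 to 1.29, with a median of 0.51 and a mean of 0.60 ± 0.37 (SD, n = 8). In the order of the group means, the step from control subcutaneous to high fat visceral fat was 0.85, over a pooled SD of 0.37, and 2 high fat visceral samples lay under the highest control subcutaneous sample. The last step, from high fat to control visceral fat, was 0.04 and lay far inside the pooled SD of 0.39. Between the steers of 1 group the highest level was 1.70 to 2.50 times the lowest, with the smaller spread in subcutaneous fat on both diets.

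**Figure D1:**
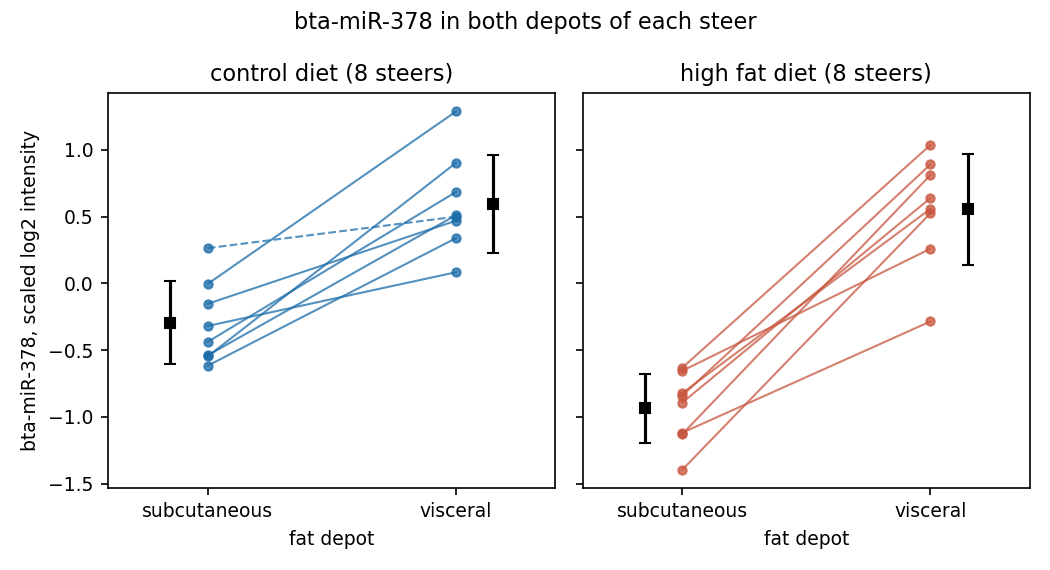
Scaled log2 intensity of bta-miR-378 (vertical axis) in subcutaneous and visceral fat of each steer, joined by a line, with the mean and SD of each group of 8 as black squares and bars. All 16 lines climb from subcutaneous to visceral fat, and the dashed line is control steer 108, which climbs least (0.24).

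The visceral sample had more bta-miR-378 than the subcutaneous sample of the same steer in 8 of 8 control steers and in 8 of 8 high fat steers. The difference in a control steer, visceral minus subcutaneous, was 0.24 in steer 108, 0.40 in steer 209, 0.62 in steer 308, 0.95 in steer 405, 1.05 in steer 410, 1.12 in steer 111, 1.29 in steer 307 and 1.45 in steer 211. Their mean was 0.89 ± 0.43 (SD, n = 8), which is 1.85-fold. Without steer 108, whose subcutaneous sample was visceral-like in bta-miR-196a and had the highest subcutaneous level of bta-miR-378 on this diet, the mean of the other steers was 0.98 ± 0.37 (SD, n = 7), with 7 of 7 above 0. Across the 233 miRNAs tested, 2.15 percent were higher in visceral fat in all 8 control steers. A miRNA at the floor in both samples of a steer shows no difference and cannot be counted. This share is therefore no measure for the miRNAs detected on all arrays.

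Within a high fat steer the same difference was 0.83 in steer 202, 0.91 in steer 302, 1.38 in steer 412, 1.53 in steer 411, 1.67 in steer 103, 1.73 in steer 204, 1.92 in steer 109 and 1.94 in steer 303. Their mean was 1.49 ± 0.42 (SD, n = 8), which is 2.81-fold, and the groups of visceral and subcutaneous samples did not overlap. On this diet 10.3 percent of the 233 miRNAs were higher in visceral fat in all 8 steers, and 6.01 percent had their lowest visceral array above their highest subcutaneous array. Since the choice of the miRNA used both depot contrasts, the 2 diets were not compared in this difference.

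The depot difference did not come from 1 probe. The probes held 6 or 7 spots each and gave a median of 11.7, 23.6 and 64.6 percent of the total intensity, and their log2 intensities over the 32 arrays had r between 0.9955 and 0.9997 with each other. With each probe scaled as the total was, the mean difference was 0.88, 0.92 and 0.89 in control steers and 1.58, 1.57 and 1.45 in high fat steers, from the dimmest to the brightest probe. Before scaling, bta-miR-378 was brighter on the visceral array of 5 of 8 control steers and 6 of 8 high fat steers, although the visceral array was the dimmer one as a whole in 6 and 7 of 8 steers. In high fat steers 411 and 412 the unscaled difference was -0.07 and -0.39, beside a difference in summed intensity of -1.47 and -1.57. In control steers 108, 209 and 308 it was -0.54, -1.11 and -0.08, beside -0.19, -1.35 and -0.62. Steer 108 was the only steer of either diet in which bta-miR-378 stood lower, relative to the summed intensity, on the visceral array.

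**Figure D2:**
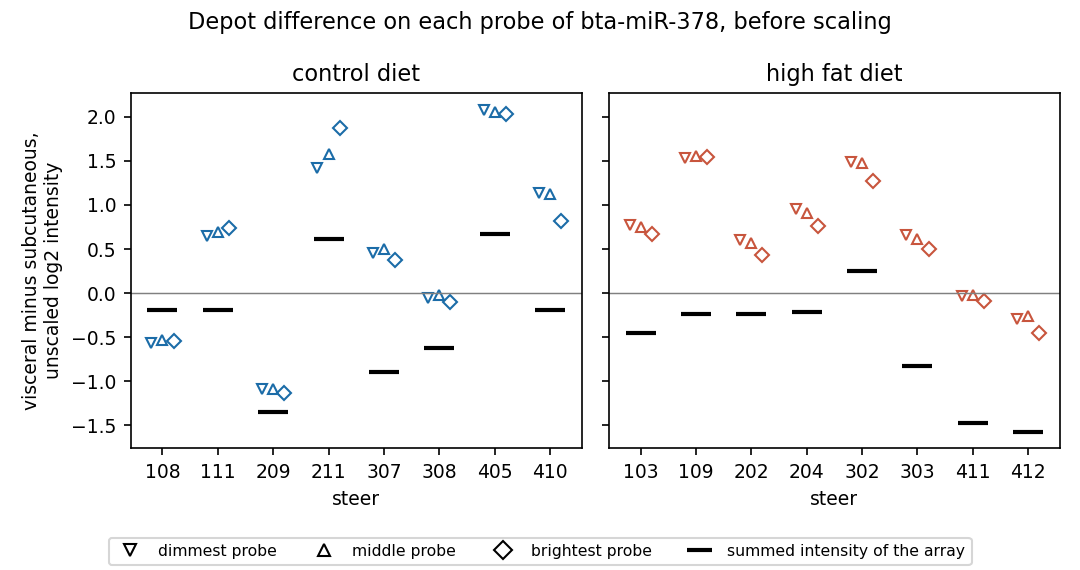
Visceral minus subcutaneous log2 intensity before scaling (vertical axis) for each of the 3 probes of bta-miR-378 in each steer (open symbols), beside the same difference of the array's summed intensity (black bars). The probes of a steer lie close together, and they lie above the black bar in every steer except control steer 108.

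Among the 91 miRNAs detected on all 32 arrays, the depot difference of bta-miR-378 ranked number 2 from the highest on the control diet, beside a median of 0.00 over the 91. bta-miR-197 stood next above it with 1.12 and bta-miR-2478 next below it with 0.87. In high fat steers it ranked number 1, beside a median of 0.14, and bta-miR-197 stood next below it with 1.31. The excess of bta-miR-378 over the median of the 91 miRNAs was 0.89 in control and 1.35 in high fat steers. By construction this excess is the same under any scaling that shifts a whole array, which includes no scaling at all. With quantile normalization, mean spot intensities and normexp background correction the control rank was 4, 5 and 3, and the high fat rank stayed at 1. The control excess with normexp was 0.43.

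**Figure D3:**
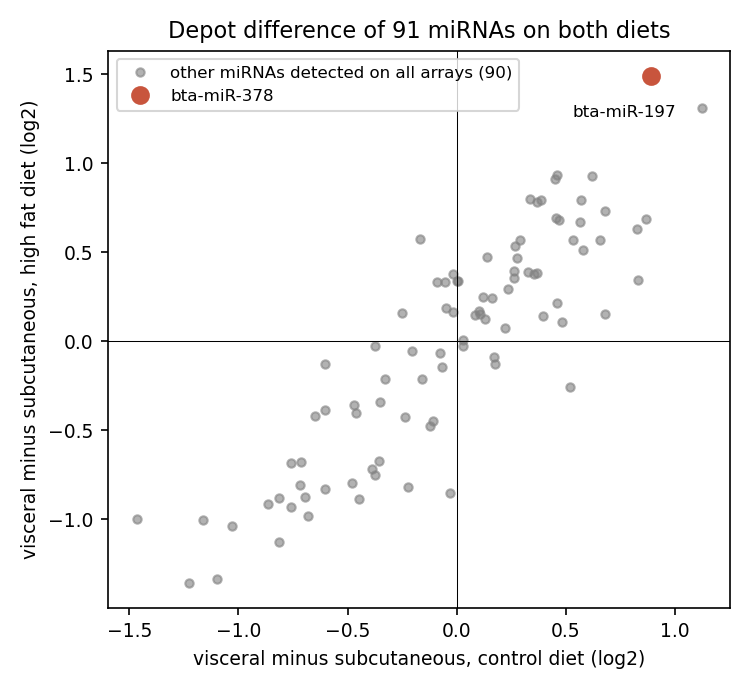
Mean visceral minus subcutaneous difference (log2, scaled intensity) on the control diet (horizontal axis) and on the high fat diet (vertical axis) for the 91 miRNAs detected on all 32 arrays, each point a miRNA. bta-miR-378 (red, 0.89 and 1.49) lies at the upper right, with bta-miR-197 (1.12 and 1.31) nearest to it.

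Between diets, the scaled level of bta-miR-378 in subcutaneous fat was lower on the high fat diet by 0.64 on the log2 scale, a ratio of 0.641. The median difference of the 91 miRNAs in the same comparison was -0.91, so that bta-miR-378 lay 0.26 above it and ranked number 43 of 91. All 8 high fat samples lay below all 8 control samples, as was so for 19.7 percent of the 233 miRNAs tested. Without the subcutaneous sample of steer 108 the difference was -0.56. In visceral fat the difference was -0.04, a ratio of 0.971, beside a median of -0.80, so that bta-miR-378 lay 0.75 above the median and ranked number 38 of 91.

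The sign of the diet difference depended on the scaling. Without scaling, bta-miR-378 was 4.82 times as bright in subcutaneous and 5.20 times as bright in visceral samples of high fat steers, beside a median log2 difference of the 91 miRNAs of 2.01 and 1.63. Scaled to the labelling spike-ins, synthetic RNAs added before labelling, the log2 differences were 2.52 and 2.83. Scaled to bta-miR-181a, the reference miRNA of the study's qRT-PCR, they were 1.36 and 1.83. In the log2 values deposited by the authors they were -2.04 and -1.11, and among these values 14 of the 16 control arrays had no shift against the unscaled log2 intensity (within 0.001), whereas 2 control arrays and all 16 high fat arrays did. The position of bta-miR-378 relative to the other miRNAs was the same under all of these, by construction: 0.26 above the median in subcutaneous and 0.75 above it in visceral fat. Processing that does more than shift a whole array moved it. It lay 0.00 and 1.24 above the median with quantile normalization, and 0.57 and 1.28 with normexp background correction.

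**Figure D4:**
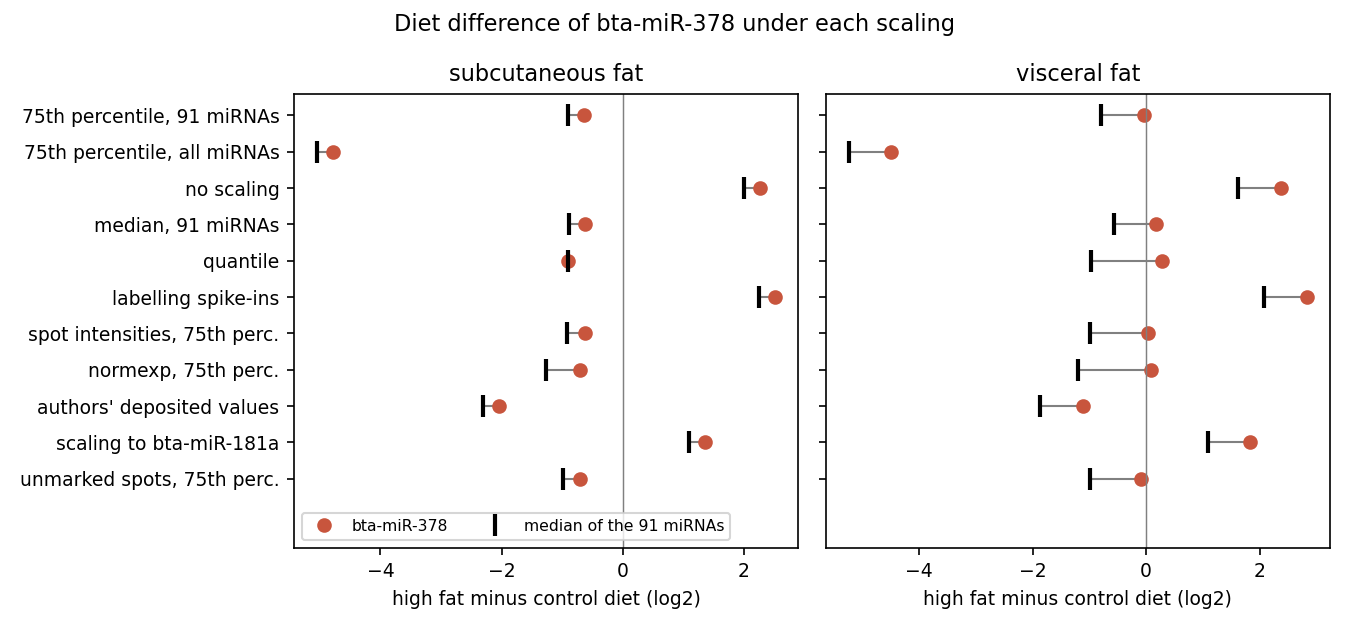
High fat minus control difference (log2, horizontal axis) of bta-miR-378 (red points) and the median of the 91 miRNAs detected on all arrays (black bars) under each scaling or set of values (vertical axis), in subcutaneous and visceral fat. The points run from -4.78 to 2.83 and the bars move with them, so the sign of the diet difference is set by the scaling, while any scaling that shifts a whole array leaves the distance between them as it is. The lowest points, -4.78 and -4.49, belong to the percentile over all miRNAs. On most control arrays that percentile lay at or near the value of an undetected miRNA.

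The levels of bta-miR-378 in the 2 depots of a steer come from the arrays on which the miRNA was chosen, so their relation is given as a description with no test. Over the 8 control steers, Pearson's r between the depots was 0.20 and Spearman's rho was 0.10. Over the 8 high fat steers, r was 0.28 and rho was 0.31. Without the 2 steers farthest from the median subcutaneous level, r was -0.31 over the other 6 control steers and 0.66 over the other 6 high fat steers. Steer and position on the slide coincide in these values, and 8 steers leave a wide range of correlations possible.

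The miRNAs whose levels moved most like bta-miR-378 from steer to steer were sought with Pearson's r over the 32 arrays after the mean of each group was subtracted, which leaves depot and diet out. Over the other 90 miRNAs detected on all arrays this r had a median of 0.06 and ran from -0.54 to 0.62, and all share the arrays and their scaling. The highest were bta-miR-107, from an intron of the pantothenate kinase gene PANK1 (0.62), bta-miR-139 (0.62), the 2 arms of 1 hairpin, bta-miR-151* (0.53) and bta-miR-151 (0.51), and bta-miR-361 (0.51). Within single groups of 8 the r of bta-miR-107 was 0.79, 0.35, 0.63 and 0.90 in control subcutaneous, control visceral, high fat subcutaneous and high fat visceral fat, whereas that of bta-miR-139 was 0.64, 0.65, -0.0023 and 0.84. The lowest were bta-miR-2893 (-0.52) and bta-miR-2328* (-0.54). With the unscaled values all 90 miRNAs had an r above 0, with a median of 0.69.

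**Figure D5:**
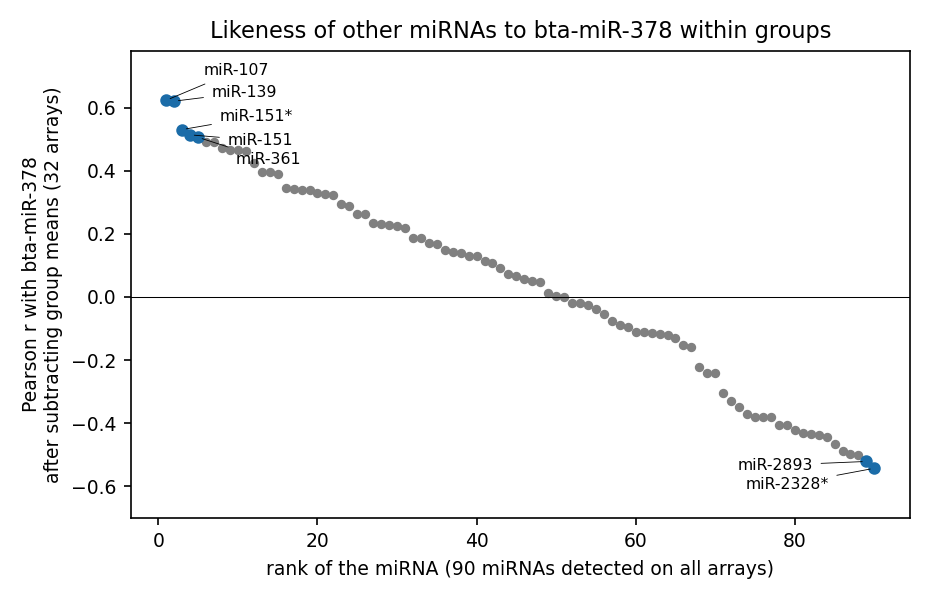
Pearson's r with bta-miR-378 over 32 arrays after subtracting group means (vertical axis) for the 90 other miRNAs detected on all arrays, ordered from highest to lowest (horizontal axis). bta-miR-107 and bta-miR-139 lead at 0.62, and the values fall without a break to -0.54.

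Without subtracting the group means, so that depot and diet count too, the most alike were bta-miR-139 (0.80), bta-miR-145 (0.69) and bta-miR-365-3p (0.66), over 32 arrays. The depot and diet differences of these miRNAs entered that ranking, so they add nothing to it.

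Other miRNAs with a place in fat metabolism were grouped into 4 lists, without bta-miR-378 itself. Of the 233 miRNAs tested with limma between depots, 6.87 percent were higher and 12 percent lower in the visceral samples of control steers (16 and 28 miRNAs), and 11.6 percent were higher and 14.6 percent lower in those of high fat steers (27 and 34). Without scaling these splits were 2 higher and 25 lower, and 1 higher and 132 lower. Of 9 miRNAs of metabolic or muscle host genes other than PPARGC1B, 3 were tested, and 0 of them passed in either depot comparison with limma. At an unadjusted limma p under 0.05 there was 1 among control and 3 among high fat steers, and by the methods' t-test, with adjusted values, 0 and 2. Their largest depot difference among those detected on all 16 arrays was that of bta-miR-107, 0.37 ± 0.15 (SE) on the control diet (adjusted p = 0.0964, limma) and 0.39 ± 0.15 on the high fat diet (adjusted p = 0.0535, limma). Without the subcutaneous sample of steer 108, 1 of the 3 was higher in visceral fat on each diet.

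Of 19 tested miRNAs that promote fat cell differentiation, 1 was higher and 1 lower in the visceral fat of control steers, with a median difference of 0.12 beside 0.00 over all miRNAs tested. bta-miR-204, which favours adipocyte over bone cell fate, had a difference of -1.47 ± 0.24 (SE; adjusted p = 0.0001, limma), and bta-miR-320 was higher by 0.58 ± 0.15 (SE; adjusted p = 0.00683, limma). Among high fat steers 1 was higher and 3 were lower, with a median of 0.12 beside 0.02. bta-miR-204 was lower there too, with a difference of -0.998 ± 0.243 (SE; adjusted p = 0.00338, limma), and bta-miR-210, a miRNA of the hypoxia response, had one of -0.70 ± 0.11 (SE; adjusted p = 4.08e-05, limma). The depot difference of bta-miR-320 on the high fat diet was 0.51 ± 0.15 (SE; adjusted p = 0.0129, limma) and turned to -0.35 without scaling. That of bta-miR-210 turned to 0.36 with normexp background correction.

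Of 19 tested miRNAs that restrain fat cell differentiation, 3 were higher and 1 lower in the visceral fat of control steers, with a median of 0.00, and 2 were higher and 3 lower in that of high fat steers, with a median of 0.05. With the steer as a replicate block, the control count was 1 higher and 1 lower. bta-miR-145, a miRNA of smooth muscle that restrains adipogenesis, was higher by 0.56 ± 0.19 (SE) in control steers (adjusted p = 0.0317, limma), a call that the block ended (adjusted p = 0.0573, limma), and by 0.67 ± 0.19 in high fat steers (adjusted p = 0.00847, limma). bta-let-7b was higher on the control diet by 0.48 ± 0.16 (SE, adjusted p = 0.0266, limma), which the block also ended (adjusted p = 0.0549, limma). bta-let-7d was higher by 0.35 ± 0.10 (SE) on the control diet (adjusted p = 0.00979, limma) and by 0.38 ± 0.10 on the high fat diet (adjusted p = 0.00500, limma). Without scaling the high fat differences of bta-miR-145 and bta-let-7d changed sign, to -0.19 and -0.49, and the counts in high fat steers were 0 higher and 12 lower here, and 0 and 10 in the list of miRNAs that promote fat cell differentiation.

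Of 20 tested miRNAs that promote or restrain brown and beige fat, 2 were higher and 1 lower in control steers, and 3 were higher and 1 lower in high fat steers, with medians of 0.01 and 0.05. Without the subcutaneous sample of steer 108, 3 were higher and 2 lower on the control diet, and without scaling 1 was higher and 8 were lower in high fat steers. The higher ones included bta-miR-196a, for which no size is given because its subcutaneous level was at or near the floor on most arrays. bta-miR-365-3p, which is clustered with the miR-193 genes and promotes brown fat differentiation, was higher by 0.57 ± 0.20 (SE) in control steers (adjusted p = 0.0439, limma), which the block ended (adjusted p = 0.0829, limma), and by 0.79 ± 0.20 in high fat steers (adjusted p = 0.00411, limma), which turned to -0.07 without scaling. bta-miR-125b, which restrains the browning of fat, differed by -0.60 ± 0.16 on the control diet (SE; adjusted p = 0.00734, limma), and the immune miRNA bta-miR-155 by -0.71 ± 0.22 on the high fat diet (SE; adjusted p = 0.0172, limma), which turned to 0.23 with normexp.

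Between diets the limma counts carried the scaling with them. In subcutaneous fat 41.6 percent of the 233 miRNAs were higher and 34.3 percent lower with the high fat diet (97 and 80 miRNAs), which became 206 and 4 without scaling and 26 and 158 with the percentile taken over all 672 miRNAs. In visceral fat 42.1 percent were higher and 29.6 percent lower (98 and 69), which became 165 and 7, and 21 and 144. On most control arrays the percentile over all miRNAs lay at or near the value of an undetected miRNA. Diet differences with it are therefore not like those with a percentile of detected miRNAs. Relative to the 75th percentile of the 91 miRNAs, bta-miR-107 was higher in high fat steers by 1.25 ± 0.15 (SE) in subcutaneous fat (adjusted p = 8.91e-09, limma) and by 1.27 ± 0.15 in visceral fat (adjusted p = 6.59e-09, limma), and these turned to -2.89 and -3.17 with the percentile taken over all miRNAs. bta-miR-103, from introns of PANK2 and PANK3, was higher by 0.72 ± 0.14 (SE) in subcutaneous fat (adjusted p = 3.66e-05, limma) and by 0.77 ± 0.14 in visceral fat (adjusted p = 1.15e-05, limma), and these turned to -3.43 and -3.67.

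Of the tested miRNAs that promote fat cell differentiation, in high fat steers 14 were higher and 3 lower in the subcutaneous depot and 16 and 3 in the visceral depot, but 4 and 8, and 2 and 8, with the percentile over all miRNAs. bta-miR-26b was the highest of those detected on all 16 arrays in both depots, by 1.78 ± 0.20 and 1.47 ± 0.20 (SE), and bta-miR-320 the lowest, by -2.07 ± 0.15 and -2.14 ± 0.15. Of those that restrain it, 6 were higher and 7 lower in the subcutaneous and 5 and 7 in the visceral depot, led on the lower side by bta-let-7b with -2.75 ± 0.16 and -3.12 ± 0.16 (SE). Of the brown and beige fat list, 11 were higher and 4 lower in the subcutaneous and 12 and 5 in the visceral depot, with bta-miR-30b-5p the highest of those detected on all 16 arrays, by 3.16 ± 0.28 and 3.14 ± 0.28 (SE). With the percentile over all miRNAs these counts became 1 and 14, 0 and 14, 1 and 12, and 2 and 13, in the same order. The single miRNAs turned as well. With the percentile over all miRNAs, bta-miR-26b turned to -2.37 and -2.97 and bta-miR-30b-5p to -0.98 and -1.31. Without scaling, bta-miR-320 turned to 0.84 and 0.28 and, in the subcutaneous depot, bta-let-7b to 0.16. The lists hold miRNAs detected on no control array, among them bta-miR-18a, bta-miR-19a, bta-miR-146b, bta-miR-130b and bta-miR-32. On the scaled level these could come out higher but not lower. The split of a list into higher and lower miRNAs is therefore no measure of its direction between diets.

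Markers of other cell types that fat samples can hold moved between the depots as well, and their part in the level of bta-miR-378 was not tested. For each list, the scaled intensities of the markers detected on an array were summed. Of 7 muscle miRNAs, 2 were detected on any array in control subcutaneous fat and 4 in each other group. bta-miR-208a and bta-miR-208b were detected on none of the 32 arrays. The summed muscle level ran from 0 to 0.0291 in control subcutaneous fat, from 0 to 0.133 in control visceral fat, from 0.0178 to 0.228 in high fat subcutaneous fat and from 0.0475 to 0.0912 in high fat visceral fat, where 1 stands for the 75th percentile. bta-miR-1, the muscle-defining one, was detected on 0, 1, 8 and 8 of 8 arrays in the same order.

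The endothelial markers bta-miR-126 and its partner arm summed to 0.578 to 1.501 in control subcutaneous and 0.863 to 2.42 in control visceral fat, and to 3.57 to 4.84 and 5.09 to 8.23 in the same depots of high fat steers. On the high fat diet the visceral range of this sum lay above the subcutaneous one. Of the 233 single miRNAs, 6.01 percent had their lowest visceral array above their highest subcutaneous array there. bta-miR-126 was higher in visceral fat by 0.66 ± 0.19 (SE) in control steers (adjusted p = 0.0130, limma). In high fat steers it was higher by 0.57 ± 0.19 (SE, adjusted p = 0.0274, limma). Its partner arm was called on neither diet. Without scaling the median difference of the 91 miRNAs on the high fat diet went from 0.14 to -0.72. That shift exceeds the 0.57 of bta-miR-126, so its sign on the high fat diet depends on the scaling. The 6 markers of fibroblasts and smooth muscle summed to 2.92 to 4.38 and 2.37 to 4.36 in control steers and to 4.76 to 5.97 and 3.60 to 5.16 in high fat steers, and 4 of the 6 were lower and 1 higher in visceral fat on each diet by limma. With the percentile over all miRNAs 0 of the 6 passed on either diet, without scaling 0 were higher and 4 lower on each, and the methods' t-test after adjustment called 1 among control and 5 among high fat steers. Of the 3 red blood cell markers, bta-miR-144 was detected on 1 array alone, of high fat subcutaneous fat, with its level at the floor. The 3 summed to 0.109 to 0.198 and 0.191 to 0.368 in control steers. In high fat steers they summed to 0.0690 to 0.135 and 0.0674 to 0.134. Among them bta-miR-486 was higher in the visceral depot by 0.68 ± 0.15 (SE; adjusted p = 0.00206, limma) in control and by 0.73 ± 0.15 (SE; adjusted p = 0.000854, limma) in high fat steers. The other one tested, bta-miR-451, did not rise with it. Its difference was -0.06 ± 0.30 in control and -0.29 ± 0.30 (SE) in high fat steers, called on neither diet, and only 5 control arrays detected it. The 4 leukocyte markers on the array summed to 0.164 to 0.455 and 0.174 to 0.404 in control steers and to 0.223 to 0.992 and 0.203 to 0.296 in high fat steers. Of the 3 tested with limma, 0 were called in control steers and 2 were lower in the visceral fat of high fat steers. These were bta-miR-223, by -0.85 ± 0.30 (SE, adjusted p = 0.0379, limma), and bta-miR-155, given above. The methods' t-test after adjustment called 1 of the 3 in high fat steers. Of 7 markers of kidney and other epithelium, which perirenal fat adjoins, 0 were detected on any control array, and on the high fat diet 2 in subcutaneous and 3 in visceral fat were detected, with sums of at most 0.0267 and 0.0379. The only one tested, bta-miR-194, was higher in the visceral samples of high fat steers by 0.54 ± 0.12 (SE; adjusted p = 0.00196, limma). The calls of bta-miR-486 and bta-miR-194 were lost with no scaling.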

How the data were processed

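Total RNA from subcutaneous and visceral fat of 16 steers was hybridized to 32 one-colour Agilent arrays. The authors extracted the arrays with Feature Extraction 10.7.3.1 (array design build HGSC Btau_3.1, per the file headers) and deposited an unscaled total intensity and a detection call for each miRNA. They also deposited log2 values, for which the methods name 75th percentile normalization in GeneSpring, and whose 244 features above 0 were matched to the miRNAs by value. Against the unscaled log2 intensity, 14 of the 16 control arrays carried no shift (within 0.001). These arrays detected 115 to 161 miRNAs. The 2 shifted control arrays detected 176 and 166, and the high fat arrays, all shifted, 169 or more. With so few of the 672 miRNAs detected, the 75th percentile over all of them fell among undetected miRNAs on the arrays without a shift. Whether the missing shift came from this was not tested. Here the total intensity was divided by the array's 75th percentile over the 91 miRNAs detected on all 32 arrays and set to at least 0.00669 (log2 -7.22). Detection on 8 or more arrays was required, which 240 miRNAs met. Leaving out 7 that stayed at the floor, 233 were tested with limma 3.58.1 in R 4.3.3 (lmFit and eBayes, 4 groups, two-sided, Benjamini-Hochberg adjusted p under 0.05), after a trial on simulated data.

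bta-miR-378 and all lists were chosen with earlier results of these data known. The miRNAs named are bta-miR-378, the 5 most and 2 least like it within groups, the 3 most like it over all arrays, its neighbours in depot difference, bta-miR-196a and the listed miRNAs with the largest changes past the threshold (2 in each direction, detected on all 16 arrays), of which some are printed. Same-numbered samples come from the same steer. Their deviations from the group means had r over 0.1 in 6 of 16 pairs, with a median of -0.20. The number of arrays, 8 in each group, limits the precision. Mature sequences were not used here.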

Additional observations from a re-analysis of the deposited data

Results flagged for a closer look

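The level of bta-miR-196a in control subcutaneous fat had 1 sample far from the other 7, that of control steer 108, whose gap to the next sample was 0.753 of the whole range of the group. None of the 8 sets of bta-miR-378 levels (scaled and unscaled) nor the 2 sets of depot differences held such a sample. In all, 11 sets were looked at, and chance alone marks about 1 in 20 for normally distributed values. bta-miR-196a was detected on 3 of the 8 control subcutaneous arrays and its median was at the floor, so that rate does not apply to its set. The scaled and unscaled sets of bta-miR-378 come from the same arrays and are not independent.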

How the results depend on the processing

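On the control diet the depot difference of bta-miR-378 kept its sign under all 14 alternatives (0.51 to 1.21) and moved by less than the SD over steers in each. It was above 0 in 5 of 8 steers without scaling, with spike-in scaling and in the deposited values. On the high fat diet it was above 0 under all 13 alternatives, and 3 of them moved it by more than the SD: 0.62 without scaling, 0.97 with spike-in scaling and 1.97 with quantile normalization. Leaving out each steer in turn gave 0.81 to 0.98 in control and 1.43 to 1.58 in high fat steers. The diet difference in subcutaneous fat was -4.78 with the percentile over all miRNAs and -2.04 in the deposited values, and reversed to 2.27 without scaling, 2.52 with spike-in scaling and 1.36 with scaling to bta-miR-181a. In visceral fat these 5 values were -4.49, -1.11, 2.38, 2.83 and 1.83. On most control arrays the percentile over all miRNAs lay at or near the value of an undetected miRNA. Leaving out each steer gave -0.69 to -0.56 and -0.12 to 0.08. The cause was not tested, apart from the shift of whole arrays that these scalings make by construction.

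With the steer as a replicate block, limma called 37 miRNAs between depots in control and 47 in high fat steers, against 44 and 61 without it, both within 1.5 times. Other counts on the control diet were 9 with the percentile over all miRNAs, 27 without scaling, 12 with spike-in scaling, 9 with normexp, 29 among the 91 miRNAs detected on all arrays, and 4 and 21 by the methods' t-test with Bonferroni and Benjamini-Hochberg adjustment. On the high fat diet they were 9 with the percentile over all miRNAs, 133 without scaling, 191 with normexp, 14 in the deposited values and 22 by the methods' t-test with Bonferroni correction. Between diets, the 91 miRNAs gave 79 calls in subcutaneous and 80 in visceral fat, where fewer miRNAs were tested. The correlation of the depots on the control diet turned to -0.32 without scaling and -0.0704 in the deposited values. On the high fat diet it was 0.37 to 0.52 under the 3 alternatives. Dim miRNAs are limited by the detection limit, which is higher relative to the scaled level on the dimmer control arrays, whereas bta-miR-378 was well above background on all spots.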
